A study of Mus musculus with 5 samples.

Results

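Celf1, Rasgef1c, Vgf, Sdc3, Ahi1, Cryaa, Slc17a3 and Scnn1a are 8 mouse genes that each have the protein-coding start nearest to a leading binding site of the zinc finger transcription factor ZFP24. The sites were chosen by values of the deposited lists. A leading site was one where a peak of oligodendrocyte progenitor cells (OPC) overlapped a peak of differentiated oligodendrocytes (OLG), where the DNA held a tandem TCAT tract, and where the number in the deposited peak name was the lowest, or at Scnn1a the second lowest in OPC, of its chromosome. These are 8 of 21703 genes with a protein-coding transcript, and 8 of 103 genes that lie nearest to any shared site with a tract. The number does not set the 8 apart. At 4 other shared sites with a tract it was also the lowest in both lists, and a site at Hpf1 had the same ranks as that of Scnn1a. Because the peak lists themselves chose the genes, the presence of a peak, its sharing, its tract and its number are given as a description and carry no test.

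The peaks came from chromatin immunoprecipitation sequencing with an antibody against ZNF24, another name of ZFP24, which the labels also call ZFP191, on cells taken by immunopanning from the brains of C57BL/6 mice at postnatal day 7. The groups used here were wild-type OPC and wild-type OLG, the latter cultured for 5 days without PDGF and with 40 ng/ml triiodothyronine, and each was 1 library. How many animals a library came from was not found in the labels. The series also held Zfp191-null OPC, Zfp191-null OLG, treated alike, and an input pooled from all 4 kinds of cells. Whether these served as controls in peak calling is not stated, and their signal at the 8 sites was not analysed here. The lists held 4643 OPC peaks and 1752 OLG peaks, all 209 bp and 221 bp wide, with no score or tag count, so the depth is unknown and a peak in a single list has no replicate check. The labels name each list for the wild-type library and also for the null library of the same cell type, and here it was taken as the wild-type list. The lists hold no expression values, and the labelled cell types could not be checked against markers.

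ZFP24 belongs to the SCAN-domain zinc finger proteins. Its zinc fingers recognise repeats of TCAT, so that a long tandem tract offers a run of possible contacts, and mice without the protein fail to form normal myelin in the central nervous system. Oligodendrocyte progenitors divide and migrate through the developing brain, and they leave the cell cycle when they differentiate into the cells that wrap axons.

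The sequences under the 8 shared sites are shown because the repeat is the feature they have in common, while its length, its continuity and its place in the peak differ from site to site. Each line gives the stretch covered by the OPC and OLG peaks together, extended to the end of any tract of 12 bases or more that touches them, on the plus strand of GRCm38 (RefSeq), which is also the gene strand of all 8 genes. Capitals mark perfect tandem runs of TCAT or of its reverse complement ATGA, in any phase, of at least 8 bases.
Celf1 (chr2:90939969-90940223): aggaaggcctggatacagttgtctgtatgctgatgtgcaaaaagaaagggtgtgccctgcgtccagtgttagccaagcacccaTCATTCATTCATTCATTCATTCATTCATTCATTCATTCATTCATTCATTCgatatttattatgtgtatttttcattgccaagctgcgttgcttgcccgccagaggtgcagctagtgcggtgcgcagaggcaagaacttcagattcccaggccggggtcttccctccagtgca
Vgf (chr5:137029814-137030066): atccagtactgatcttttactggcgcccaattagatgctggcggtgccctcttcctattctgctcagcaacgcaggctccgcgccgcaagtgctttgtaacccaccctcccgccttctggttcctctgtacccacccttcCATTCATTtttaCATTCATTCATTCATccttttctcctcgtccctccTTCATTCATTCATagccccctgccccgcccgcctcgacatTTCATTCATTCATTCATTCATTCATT
Ahi1 (chr10:20952156-20952384): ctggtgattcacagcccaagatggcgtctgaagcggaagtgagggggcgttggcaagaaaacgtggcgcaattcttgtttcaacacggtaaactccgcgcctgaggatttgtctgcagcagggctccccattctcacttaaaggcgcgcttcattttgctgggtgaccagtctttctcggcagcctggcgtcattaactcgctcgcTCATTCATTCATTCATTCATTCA
Sdc3 (chr4:130804476-130804697): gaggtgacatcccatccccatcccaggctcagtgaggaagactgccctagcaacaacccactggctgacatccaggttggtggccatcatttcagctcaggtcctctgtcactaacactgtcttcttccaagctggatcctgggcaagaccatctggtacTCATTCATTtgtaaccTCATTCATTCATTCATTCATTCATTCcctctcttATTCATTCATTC
Rasgef1c (chr11:49938770-49939037): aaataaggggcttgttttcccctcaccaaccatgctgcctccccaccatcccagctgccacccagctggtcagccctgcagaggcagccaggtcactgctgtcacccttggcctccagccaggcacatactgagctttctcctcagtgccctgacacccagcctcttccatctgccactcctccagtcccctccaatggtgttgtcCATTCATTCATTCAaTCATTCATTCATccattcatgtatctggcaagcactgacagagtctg
Scnn1a (chr6:125331227-125331483): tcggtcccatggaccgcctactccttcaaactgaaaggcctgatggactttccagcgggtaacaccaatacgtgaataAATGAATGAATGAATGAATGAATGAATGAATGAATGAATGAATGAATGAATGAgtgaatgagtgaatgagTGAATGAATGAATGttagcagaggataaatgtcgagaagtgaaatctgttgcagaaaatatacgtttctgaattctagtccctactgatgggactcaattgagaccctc
Slc17a3 (chr13:23833028-23833248): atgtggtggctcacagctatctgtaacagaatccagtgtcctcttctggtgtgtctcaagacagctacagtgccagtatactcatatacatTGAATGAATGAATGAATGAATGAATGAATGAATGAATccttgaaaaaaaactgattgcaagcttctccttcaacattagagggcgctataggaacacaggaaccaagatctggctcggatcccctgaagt
Cryaa (chr17:31766527-31766808): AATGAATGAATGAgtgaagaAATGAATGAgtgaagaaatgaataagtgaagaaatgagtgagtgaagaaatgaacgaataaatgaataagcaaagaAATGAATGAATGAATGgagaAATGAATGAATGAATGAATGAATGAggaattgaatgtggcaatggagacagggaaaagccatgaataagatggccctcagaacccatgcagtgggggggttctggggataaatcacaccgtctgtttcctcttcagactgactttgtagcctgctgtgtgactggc

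The tracts fell into 3 forms. Celf1, Slc17a3 and Scnn1a each had a long uninterrupted run, of 50, 37 and 53 bases, and Scnn1a also had a further run of 14 bases. Sdc3, Vgf, Ahi1 and Cryaa had a longest run of 26, 26, 23 and 25 bases, and at Sdc3, Vgf and Cryaa it stood among further runs. Rasgef1c had the shortest perfect runs, 14 and 12 bases, which were parted by a single base. With up to 1 mismatch per 12 bases the Rasgef1c runs joined into 37 bases, the Ahi1 run grew to 38, that of Celf1 to 57 and that of Scnn1a to 96, whereas those of Vgf and Cryaa stayed at 26 and 25. TCAT was read on the gene strand at 5 sites (Celf1, Vgf, Ahi1, Sdc3 and Rasgef1c) and ATGA at 3 (Scnn1a, Slc17a3 and Cryaa). Among the other 97 shared sites with a tract, TCAT lay on the strand of the nearest gene at 49.

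All 1395 stretches of 75 bases, the length of the reads, that lie in these 8 sequences occur once on chromosomes 1 to 19 and X, on either strand. The longest perfect run, 53 bases at Scnn1a, is shorter than a read. At least 12 bases of a perfect run within 100 bp of the peak centre, the criterion used for a peak with a tract, was met by 12.2% of all OPC peaks (exact 95% interval 11.3 to 13.2), by 5.71% of all OLG peaks (4.67 to 6.90) and, in either peak, by 41.3% of the 254 shared sites. The criterion helped to choose the 8 sites, so nothing follows from their own count. It was met at all 8 by the OPC peak and at 6 by the OLG peak, the exceptions being Ahi1 and Rasgef1c. There the OLG centre lay 9 bp and 53 bp further from the tract than the OPC centre did, which left under 12 bases of it in the OLG window.

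**Figure D1:**
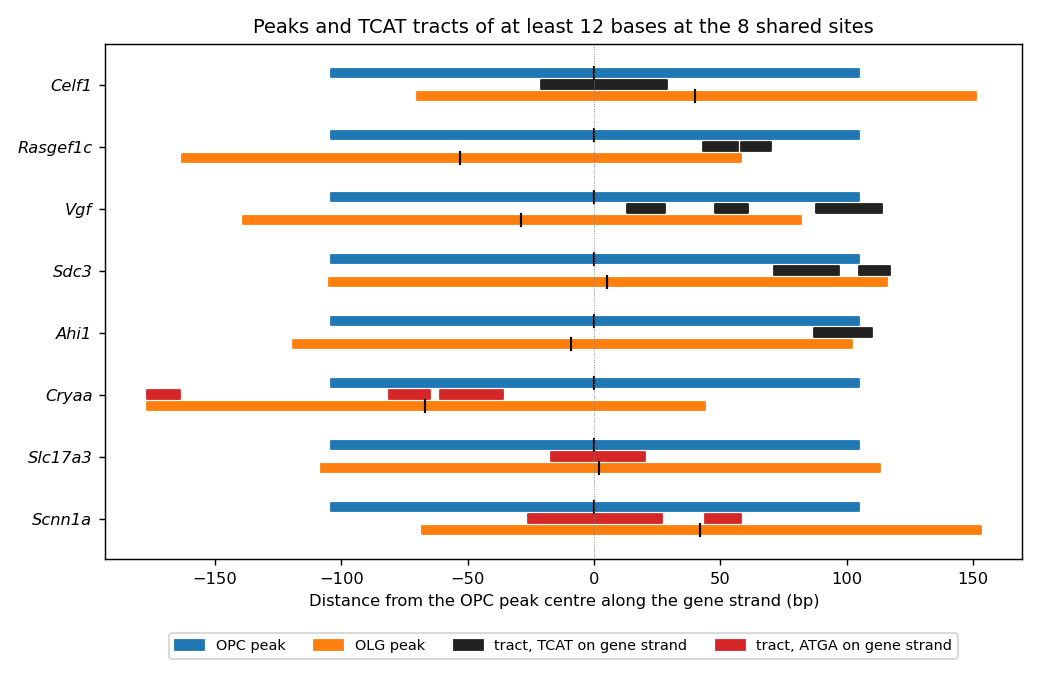
Position of the OPC peak (blue), the OLG peak (orange) and each perfect TCAT tract of at least 12 bases at the 8 shared sites. The x axis is the distance in bp from the OPC peak centre along the gene strand, vertical ticks mark peak centres, black tracts read TCAT and red tracts ATGA on the gene strand. The tracts of Celf1, Slc17a3 and Scnn1a span the OPC centre, while the longest tracts of Vgf, Sdc3 and Ahi1 lie 83.5 to 100 bp from it.

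Peak and tract did not always coincide. The middle of the longest tract lay 3.50, 1.00 and 0 bp from the OPC peak centre at Celf1, Slc17a3 and Scnn1a, and 36.5, 1.00 and 42.0 bp from the OLG centre. At Rasgef1c and Cryaa the distances to the OPC centre were 49.5 and 49.0 bp, and to the OLG centre 102 and 18 bp. At Vgf, Sdc3 and Ahi1 the longest tract sat at the rim of the OPC peak, 100, 83.5 and 98.0 bp from its centre. From the OLG centre it was 130, 78.5 and 107 bp away. That placed it at the rim of the OLG peak at Sdc3 and Ahi1, but wholly past the end of the OLG peak at Vgf. At Vgf 2 shorter runs, of 15 and 13 bases, lay closer to both centres. The plot of peaks and tracts along the gene strand shows the 3 sites with a tract centred in the OPC peak and the 3 with the longest tract at its rim. The OPC and OLG centres were 2 to 67 bp apart, with a median of 34.5 bp, against a median of 55.0 bp at the other 97 shared sites with a tract. They lay closest at Slc17a3 (2 bp), Sdc3 (5 bp) and Ahi1 (9 bp), and furthest apart at Cryaa.

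Of the 8 sites, 3 were at promoters, with the OPC centre within 1 kb of a protein-coding start. Celf1 encodes an RNA-binding protein that controls splicing and decay of messenger RNA. Its OPC peak (chromosome 2, 90939969 to 90940177) lay 324 bp and its OLG peak (90940003 to 90940223) 284 bp upstream of the start at 90940397, outside any annotated gene. That start is used by 4 of the 9 basic transcripts of Celf1, and the other transcripts start further downstream, between 90940543 and 90998579. A second OPC peak of the locus, 22889 bp upstream of Celf1, was in a non-coding exon of Ptpmt1, which the annotation does not class as coding. The Ptpmt1 start, 22216 bp from the OPC centre of the Celf1 site, lay closer to this second peak than any coding start. The nearest coding start was that of Ndufs3, a gene of mitochondrial complex I, 12681 bp away. The second peak had no run of 8 bases and no OLG partner.

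Vgf encodes a secreted neuropeptide precursor of neurons and endocrine cells. Its OPC peak (chromosome 5, 137029849 to 137030057) lay 342 bp and its OLG peak (137029814 to 137030034) 371 bp upstream of the start at 137030295. Both were also inside the gene, in intron 3 of 4 of the transcript that starts 3561 bp before the OPC centre, so that the same site lay upstream of the shorter transcripts and in an intron of the longest. The only other peak of the locus was an OPC peak 61 bp downstream of the start of Fis1, a gene of mitochondrial fission, in its untranslated region.

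Ahi1 encodes jouberin, a protein of the ciliary transition zone that is mutated in Joubert syndrome. Its OPC peak (chromosome 10, 20952171 to 20952379) was 272 bp and its OLG peak (20952156 to 20952376) 281 bp upstream of the start at 20952547. The site stood alone, as the locus of 288274 bp held no other peak of either list and no other tract of 12 bases. It also had 14 CpG dinucleotides in the 200 bp around the OPC centre, more than any other of the 8 sites, where the range was 0 to 10. RefSeq promoter windows, from 250 bases before to 50 after a start, were found for 6 of the 8 genes, and 1 of the Ahi1 windows held its 23-base tract. Of all 32851 such windows, 31 held a perfect tract of 12 bases or more on either strand, or 0.0944%. Ahi1 was chosen partly for its tract, so this share is not to be read against it. Vgf, whose tract also lay before a start, was not among the 6 genes with a window.

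Introns held 3 further sites, at Sdc3, Rasgef1c and Scnn1a. Sdc3 encodes syndecan 3, a heparan sulphate proteoglycan of the cell surface in the nervous system. Its OPC peak (chromosome 4, 130804477 to 130804685) and OLG peak (130804476 to 130804696) were 12044 and 12049 bp downstream of its single start. The OPC peak lay wholly inside the OLG peak. Intron 1 of Sdc3, of 24042 bp, held 2 more peaks, an OLG peak 2393 bp and an OPC peak 22480 bp from the start, and neither had a run of 8 bases or a partner in the other list. Every peak of the locus thus had Sdc3 as its nearest coding gene.

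Rasgef1c encodes a predicted guanine nucleotide exchange factor for Ras-like GTPases. The OPC peak (chromosome 11, 49938829 to 49939037) and the OLG peak (49938770 to 49938990) were in intron 1 of its 3 transcripts, 36772 and 36719 bp downstream of the nearest start. No other peak of either list was in the locus. Scnn1a encodes the alpha subunit of the epithelial sodium channel, known for sodium uptake in kidney, lung and colon. Its OPC peak (chromosome 6, 125331227 to 125331435) and OLG peak (125331263 to 125331483) were 9810 and 9852 bp downstream of the nearest of its 4 starts, in an intron of 908 bp that is intron 2 or 3 depending on the transcript. There, too, the shared site was the only one of the locus.

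The remaining 2 sites were intergenic. Slc17a3 encodes an anion transporter known from kidney and liver. The OPC peak (chromosome 13, 23833032 to 23833240) and the OLG peak (23833028 to 23833248) were 6298 and 6296 bp upstream of its first start. Further peaks of the locus lay in the histone gene cluster, with an OPC peak in the coding exon of Hist1h4b, 228 bp from its start, and an OLG peak 281 bp upstream of Hist1h3c. Cryaa encodes alpha A crystallin, a small heat shock protein and chaperone of the lens. Its OPC peak (chromosome 17, 31766600 to 31766808) and OLG peak (31766527 to 31766747) were 88756 and 88689 bp downstream of the nearest start, beyond the end of the gene. An OLG peak 14405 bp upstream of Cryaa was closer to U2af1, a splicing factor gene, at 4510 bp.

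In all, 12 OPC and 11 OLG peaks were found at the 8 loci, that is, with the centre within 100 kb of a transcript start or in the gene body. An OPC peak was present at all 8, against 44.1% of the 21703 coding genes, and likewise an OLG peak, against 24.5%. A shared peak and a shared site with a tract, again found at all 8, were at 4.09% and 1.65% of coding genes. The choice of the genes fixes these counts. Besides the shared sites there were 4 OPC and 3 OLG peaks, and none of the 7 held a run even of 8 bases. Over all peaks a run of 12 bases was held by only 12.2% in OPC and 5.71% in OLG, and the share with 8 bases was not counted. With so few peaks the absence of a run is a description only. For 2 of the 7 other peaks, both at Sdc3, the listed gene had the nearest coding start. At Rasgef1c, Ahi1 and Scnn1a the shared site was the only peak position.

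The nearest start is a rule of position, and how many other genes could be the target differed widely. Ahi1 and Sdc3 were the only coding genes with a start within 100 kb of their site. The next starts were those of Myb at 208630 bp and of Laptm5 at 108544 bp, followed by Pde7b at 227197 bp and Matn1 at 139804 bp. Rasgef1c had 2 coding neighbours within 100 kb, the kinase gene Mapk9 at 84676 bp and the ubiquitin ligase gene Rnf130 at 86413 bp. Around Celf1 there were 5 others, led by Ndufs3 at 35246 bp and Kbtbd4 at 35330 bp. The start of Ptpmt1, which the annotation does not class as coding, was closer to the Celf1 site, at 22216 bp. Around Scnn1a there were 6, led by the genes of the lymphotoxin beta receptor, Ltbr, at 17446 bp and of the tumour necrosis factor receptor 1, Tnfrsf1a, at 18392 bp.

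Around Vgf there were 7 other coding genes, the nearest being Ap1s1, an adaptor of vesicle transport, at 16182 bp and Znhit1 at 41932 bp. Slc17a3 had the most crowded surroundings, with 13 others within 100 kb. They included Slc17a2 at 26088 bp, Slc17a1 at 37129 bp and Slc17a4 at 81832 bp, members of the same transporter family, and 9 histone genes between 69470 and 94328 bp. Cryaa had the smallest lead over the next gene. Sik1, a salt-inducible kinase gene, started 89100 bp from the OPC centre, 344 bp further than Cryaa, and by distance to the gene body Sik1 was the nearer gene, at 77546 against 84971 bp. Sik1 also had an OPC peak of its own 755 bp from its start, and 2 more OPC peaks lay between it and the shared site.

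**Figure D2:**
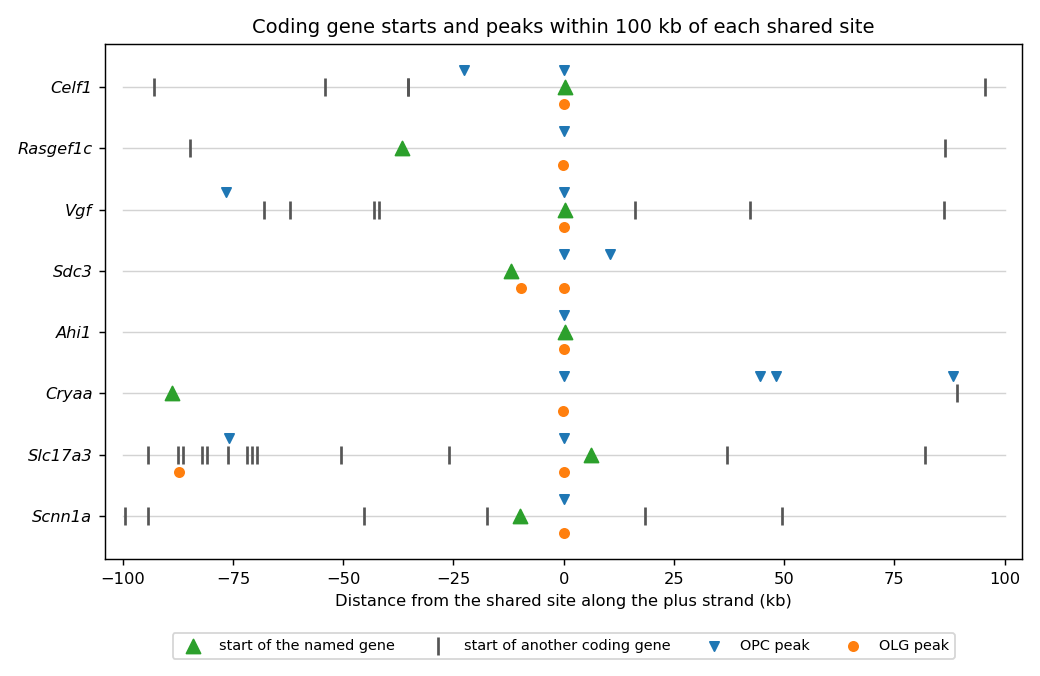
Coding gene starts and peaks within 100 kb of each of the 8 shared sites, with distance in kb along the plus strand on the x axis. Green triangles mark the start of the named gene, grey ticks starts of other coding genes, blue and orange symbols OPC and OLG peaks. Ahi1 and Sdc3 have no other coding start in the window, Slc17a3 has 13, and at Cryaa the named gene and Sik1 lie at almost equal distances on opposite sides.

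When starts of all gene classes were used, 6 of the 8 genes were still nearest. The antisense RNA gene Gm12970 started 7745 bp from the Sdc3 site, and the long non-coding RNA gene AC166654.1 started 22822 bp from the Cryaa site. Non-coding genes with a start within 100 kb numbered between 1 at Rasgef1c and 9 at Sdc3. No expression was measured, so which of these genes responds to ZFP24 was not tested.

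The 8 loci held tracts with a peak and tracts without one. They contained 27 perfect tracts of 12 bases or more, of which 15 had a peak centre within 100 bp and 12 had none. The tract at the shared site was the longest of its locus in all 8 cases, but the Rasgef1c, Vgf and Ahi1 loci held no tract away from the site. The 12 tracts without a peak were 12 to 30 bases long, with a median of 13.5. They lay in 5 of the loci, and 2 of them reached 24 bases, 1 of 24 bases in the Cryaa locus, 72862 bp downstream of the start, and 1 of 30 bases 40702 bp downstream of the Slc17a3 start. These 2 lay 15815 and 47013 bp from the closest peak centre. Another tract without a peak, of 13 bases, lay 134 bp from the OLG centre of the Cryaa site, in the same cluster of repeats.

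**Figure D3:**
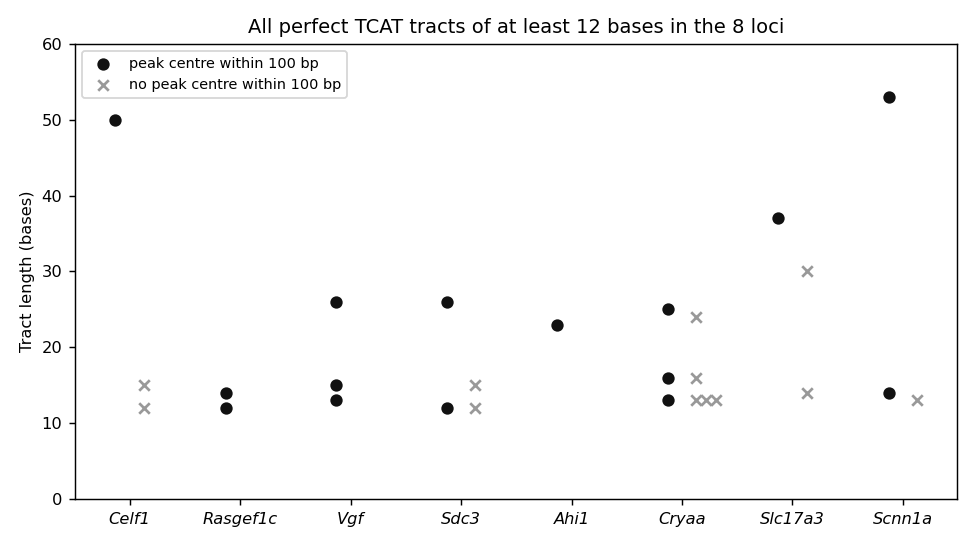
Length in bases of every perfect TCAT tract of at least 12 bases in the 8 loci, 1 point per tract. Black points have a peak centre of either list within 100 bp and grey crosses have none. In each locus the longest tract is at a peak, and the longest tract without one, 30 bases, is in the Slc17a3 locus. The Rasgef1c, Vgf and Ahi1 loci have no tract without a peak.

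Over chromosomes 1 to 19 and X there were 16888 such tracts, of which 4.66% (exact 95% interval 4.35 to 4.99) had a peak centre of either list within 100 bp. A peak centre of either list was within 100 bp of 1.95% (1.69 to 2.24) of the tracts of 12 to 15 bases, of 4.54% (3.82 to 5.34) of those of 16 to 23 and of 12.8% (11.7 to 13.9) of those of 24 or more. In the 8 loci the counts were 7 of 16, 2 of 3 and 6 of 8 in the same order. All 15 tracts with a peak lay at the shared sites by which the genes were chosen, so these counts are not to be read against the genome shares.

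The 8 sites ranked first or second by peak-name number within their chromosome, by their choice, and had tracts of many lengths. Names in the lists join a chromosome and a number, no label or header says what the number means, and a rank within the chromosome is used below. The shared site had the lowest number of its chromosome in both lists at 7 of the 8 genes, such as Celf1, which was first of 401 OPC peaks and first of 144 OLG peaks on chromosome 2. Scnn1a was second of 225 in OPC and first in OLG. The numbers themselves were 1 to 6 in OPC and 1 to 9 in OLG at 7 of the genes, but 35 in OPC and 73 in OLG at Rasgef1c, where they were still the lowest on chromosome 11. Of all 105 shared sites with a tract, 11 had the lowest number in both lists. The 4 of these that are not among the 8 lay nearest to Kcnj10, Pick1, Litaf and Flrt1, the last 2 named after their values were seen, as was Hpf1, whose site had the same ranks as that of Scnn1a, 2 and 1. The longest tract was 14 to 53 bases at the 8 sites, with a median of 26, and 12 to 57 bases at the other 97, with a median of 27. A run of 40 bases or more was at 2 of the 8 sites (Celf1 and Scnn1a) and at 13 of the 97.

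Outside the 8, the sites with the lowest OPC numbers, 1 to 4, were those of Tmem143, Pick1, Kcnj10, Bcl11b and Arhgef10l, and these numbers were below those of Celf1, Slc17a3, Scnn1a, Cryaa and Rasgef1c. A site at Dtx1 had the same OPC number as that of Arhgef10l, 4, and a higher OLG number, 8 against 7. Kcnj10, a glial potassium channel gene, had a run of 57 bases 9902 bp downstream of its start, longer than at any of the 8. Pick1 had one of 36 bases 26908 bp upstream and Bcl11b, a transcription factor gene, one of 31 bases 71583 bp downstream. Tmem143 and Arhgef10l had runs of 19 and 28 bases at 6501 and 86184 bp. All 5 lay more than 1 kb from the nearest coding start. A promoter held 3 of the 8 sites and 21 of the 97 others (21.6%), and the median distance to the nearest coding start was 8054 and 15581 bp. The GC content of the 200 bp around the OPC centre ranged from 38.5% at Scnn1a to 54.0% at Vgf and Rasgef1c, with a median of 46.8%, against 45.0% at the other 97 sites and 51.5% over all OPC peaks.

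**Figure D4:**
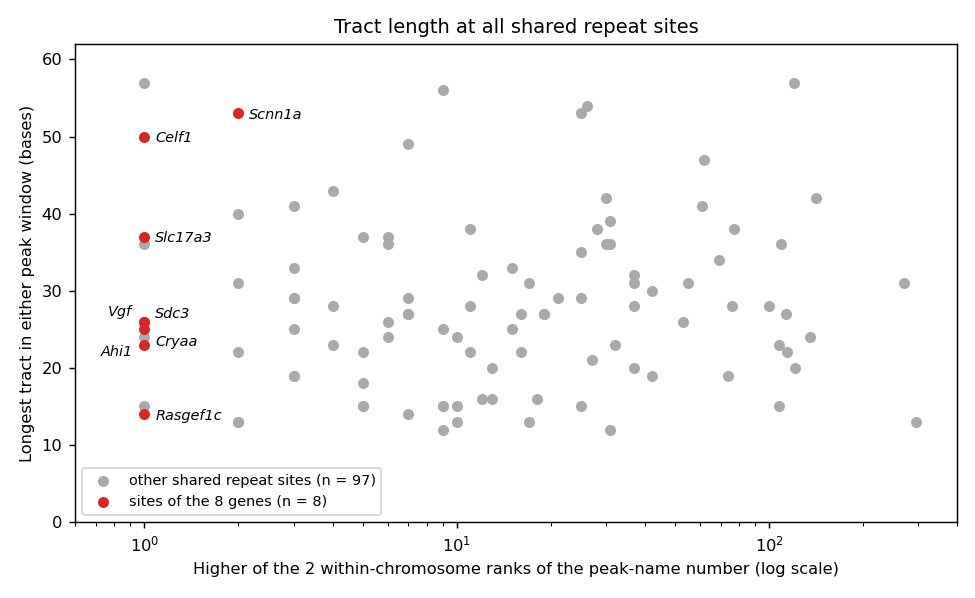
Longest tract in bases in the window of either peak (y axis) against the higher of the OPC and OLG ranks of the peak-name number within the chromosome (x axis, log scale) for all 105 shared sites with a tract, 1 point per site. Red points are the sites of the 8 genes and grey points the other 97. The red points are all at rank 1 or 2, by their choice, and spread from 14 to 53 bases, within the range of the grey points.

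Relatives of the 8 genes were counted in the same way. Of 70 genes in 8 families, 69 were matched to the annotation, and 61 of these were relatives and not the listed genes themselves. Within 10 kb of a start, 3 of the 61 had an OPC peak (4.92%, against 12.7% of all coding genes) and 4 an OLG peak (6.56%, against 6.47%). The 3 in OPC were Celf2, an RNA-binding protein gene like Celf1, 301 bp downstream of a start, Cc2d2a, which like Ahi1 acts in the ciliary transition zone, at 313 bp, and Asic2, an acid-sensing sodium channel gene, at 280 bp. Those in OLG included Chgb, a granin gene, at 450 bp, the ciliary gene Mks1 at 5694 bp upstream, and Slc17a6, a vesicular glutamate transporter gene, at 228 bp upstream. No relative had both within 10 kb.

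With the wider rule of 100 kb or the gene body, an OPC peak was found for 33 of the 61 relatives (54.1%, against 44.1% of all coding genes). An OLG peak was found for 21 (34.4%, against 24.5%), and a shared site with a tract for 4, where the share over all coding genes was 1.65%. Of these 4, Slc17a1, Slc17a2 and Slc17a4 shared the site of Slc17a3, since they lie in the same gene cluster. The fourth was Scnn1g, the gamma subunit gene of the epithelial sodium channel, 26641 bp from a site on chromosome 7 whose nearest coding start was that of Usp31, at 585 bp. Slc17a1, Slc17a2 and Slc17a4 are also among the 33 and the 21. For Slc17a1 and Slc17a4 the site of Slc17a3 was the only peak position in this range. The choice of the genes thus fixed a part of the 33, the 21 and the 4. None of the 3 other syndecan genes had an OPC peak in this range and 1 had an OLG peak, and of 13 other crystallin genes 7 had an OPC and 2 an OLG peak, none of them shared.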

How the data were processed

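ZFP24 was mapped by ChIP-seq in 5 libraries with 1 library per group, read as 75 nt single-end reads, per the labels' protocols. Per the submitters' processing notes, BWA and HOMER 4.8.3 were used with the mm10 build; the sources used here do not state peak-calling options, the threshold or the use of the null and input libraries. The authors deposited 2 peak lists with chromosome, start, end and name. Here the lists were joined to GRCm38.p6 (RefSeq sequence) and GENCODE M21 basic; 0 peaks ran past a chromosome end on 20 chromosomes. Positions are 1-based. A locus was 100 kb around each transcript start plus the gene body. A tract was a perfect TCAT repeat of at least 12 bases, and 12 of them had to lie within 100 bp of the peak centre. Lists were joined by overlap of at least 1 bp. With no replicates and genes chosen from the lists, no test was run, and intervals (exact, Clopper-Pearson) cover counting error only. The 8 genes, the families and the rules for named genes (the 8, the 3 nearest coding genes of each site, relatives with a peak within 10 kb and the 5 other shared sites with a tract that had the lowest OPC numbers, ties taken by OLG number) were chosen with earlier results of these data known. The values of 1 relative are not reported here. Steps were tested on simulated data. Python 3.11.15 and scipy 1.17.1 were used.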

Additional observations from a re-analysis of the deposited data

How the results depend on the processing

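Counts were recomputed with other windows, starts, tract lengths and overlap rules. OPC peaks at the 8 loci numbered 12, and 8, 9 and 20 with windows of 10, 50 and 200 kb. OLG peaks numbered 11, and 8, 9 and 12. The Cryaa site, 88756 bp from the start in OPC and 88689 bp in OLG, fell outside the windows of 10 and 50 kb. The 8 peaks at 10 kb were thus not 1 per gene, as Sdc3 had 2 in each list. Shared sites with a tract were counted with the window of 100 kb only. There all 8 genes had one, but 5 with a minimum of 16 bases inside the 200 bp window and 5 with 24, where Rasgef1c, Vgf and Ahi1 dropped out. The Vgf tract, of 26 bases, and the Ahi1 tract, of 23, run out of the 200 bp window, and that of Ahi1 is also under 24 bases. With centres within 50 bp 6 genes were left, without Rasgef1c and Cryaa. The tract was in both peaks at 6 genes, at 5 with a minimum of 16 or 24 bases or with centres within 50 bp, and at 8 when it was sought in the peaks as deposited or within 250 bp of the centre. Tracts in the loci without a peak numbered 12, and 11 with a reach of 250 or 500 bp. The other settings, namely a minimum of 8 bases, 1 mismatch per 12 bases, a larger minimum overlap of the peaks and coding starts only, changed none of these counts. No paired analysis was possible because each group has 1 library and no test was run. Library depth is unknown, and a peak seen in 1 list alone may lie just under the threshold of the other, which was not tested.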

Other observations

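At the 8 sites the tract tended to lie on a given side of the peak centre, and this was then counted in the peaks of all other sites, a comparison chosen after the data of the 8 genes had been seen. Read along the strand that spells TCAT, the middle of the longest tract lay on the 3' side of the OPC centre at 6 of the 8 genes (Celf1, Rasgef1c, Vgf, Sdc3, Ahi1 and Cryaa), on the 5' side at 1 (Slc17a3, by 1.0 bp) and on the centre at Scnn1a. For the OLG centre it was on the 3' side at 6 and on the 5' side at 2 (Celf1 and Cryaa). These counts took the longest tract touching either peak. Its middle lay 102.5, 129.5 and 107.0 bp from the OLG centre at Rasgef1c, Vgf and Ahi1. The other OLG peaks were first counted only with a tract within 100 bp. The OLG peaks of Rasgef1c and Ahi1 did not meet that rule, and that of Vgf met it with shorter tracts, also on the 3' side. The OLG counts of 6 and 2 thus follow a different rule.

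Among the 559 other OPC peaks with a tract within 100 bp, the longest tract lay on the 3' side in 343 and on the 5' side in 214, so that 61.6% were on the 3' side (exact 95% interval 57.4 to 65.6), with a median offset of 17 bp. The share was 64.0% (59.1 to 68.7) for tracts of 24 bases or more and 52.0% (40.2 to 63.7) for tracts of 12 to 15 bases. In the 94 other OLG peaks it was 57.4% (46.8 to 67.6), an interval that spans 50%. There it was 67.8% (54.4 to 79.4) for tracts of 24 bases or more, but 25.0% (8.66 to 49.1) for the 20 peaks with tracts of 12 to 15 bases, of which 15 were on the 5' side. With tracts within 250 bp of the centre the share was 61.5% (57.8 to 65.1) in OPC, over 710 peaks, and 63.2% (54.8 to 71.1) in OLG, over 144. For OLG tracts of 12 to 15 bases it was then 40.0% (21.1 to 61.3), an interval that spans 50%. The intervals cover counting over peaks of 1 library each, and some sites are in both lists. Strand-specific read positions were not analysed here, and the cause was not tested.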
